A study of Mus musculus with 10 samples.

Results

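Histone acetylation and DNA methylation are the chemical marks through which much of chromatin is opened, closed and kept silent, and 48 genes that write, erase, read or recruit these marks were examined in the adult mouse cortex. They were taken by gene symbol from the 13661 genes of the authors' deposited table, and all 48 were found there. The series compared the cortex of 5 mice carrying a Chd8 knock-in allele (Chd8 KI, here KI), which models a duplication of an autism-related gene, with that of 5 wild-type (WT) mice. All 10 were males of 8 weeks of age, and each gave 1 poly(A) RNA library. The labels do not give the construction of the allele, the strain or whether animals shared a litter. The table holds 1 row per gene for the whole comparison, so values of single libraries and of each group were not analysed here.

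Acetyltransferases place acetyl groups on the lysines of histone tails, which loosens chromatin and creates docking sites for bromodomain proteins. Zinc-dependent deacetylases and the NAD-dependent sirtuins take these groups off. Of the zinc-dependent enzymes, Hdac1, Hdac2 and Hdac3 work largely inside corepressor complexes such as NCoR, Sin3 and NuRD. DNA methyltransferases methylate cytosine, TET enzymes oxidise that methyl group, and some MBD proteins read it. Neurons are known for unusually high levels of both Dnmt3a-dependent methylation and TET-made hydroxymethylcytosine. CHD8, the product of the manipulated gene, is an ATP-dependent chromatin remodeller.

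Chd8 itself stood at a log2 fold change of 0.49 in the authors' deposited table, with a standard error (SE) of 0.10 and an adjusted p of 0.0044 by the DESeq2 Wald test. Its normalised count averaged 2474 across the 10 libraries. The table's header leaves the direction of its fold changes unnamed, and they were taken as KI over WT, the reading that makes Chd8 higher in KI. Every sign below rests on that reading. All 11 listed markers of cortical excitatory neurons were present, with mean normalised counts from 487 to 62823 in the authors' deposited table. Their presence does not by itself identify the tissue, because markers of other tissue were present too, such as Ttr of the choroid plexus at 13144. Listed markers of tissue next to the cortex were mostly negative in the same table. These lists were chosen with earlier results of these data known, so they describe the table and are no independent test. Of 11 thalamic markers 9 were negative (median log2 fold change -0.48, 4 past an adjusted p of 0.05 by the DESeq2 Wald test). All 12 meningeal markers (median -0.22, 1 past the threshold) and all 10 choroid plexus markers (median -0.26, none past it) were negative. Of all genes tested, 0.0732% passed that threshold and 51.6% were positive.

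None of the 48 genes of the acetylation and methylation machinery passed the test for a difference between KI and WT cortex. By the authors' deposited table, 0 of the 48 passed an adjusted p of 0.05 (DESeq2 Wald test, Benjamini-Hochberg adjustment over 13660 genes), against 0.0732% of all genes tested, and the adjusted p of each of the 48 was 0.9999. At an unadjusted p under 0.05 the count was also 0 of 48, against 3.22% of all genes tested. Of the 48 log2 fold changes there, 29 were positive and 19 negative, and 51.6% of all genes tested were positive. The median log2 fold change was 0.015 for the 48 genes and 0.0025 for all genes tested, and the median size without sign was 0.037 for the 48 and 0.052 for all. The scores were also narrowly spread, with an SD of the Wald score (log2 fold change over SE) of 0.576 over the 48 and 0.897 over all genes tested. Only Sirt1, Brd2, Kat2b and Sirt3 had a Wald score above 1 in size, 4 of 48, against 24.5% of all genes tested. In whole cortex, fewer cells of a type and less RNA per cell cannot be told apart.

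**Figure D1:**
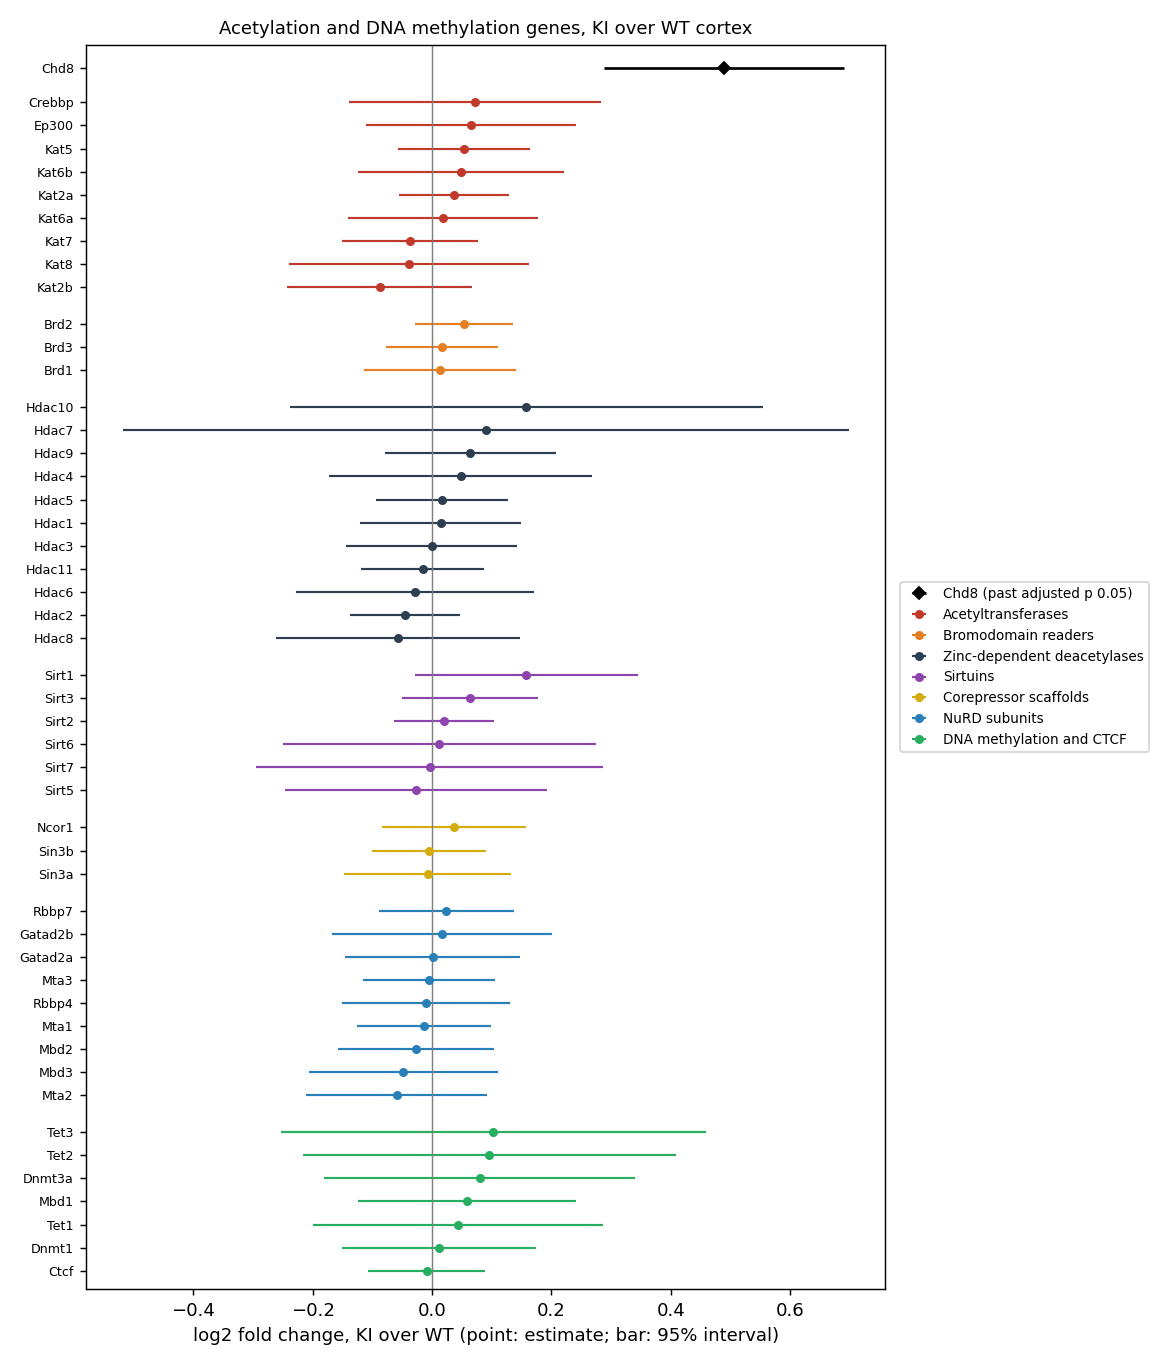
Log2 fold change of KI over WT (horizontal axis) for Chd8 and the 48 genes, grouped by role; points are the estimates of the authors' deposited table and bars the 95% normal intervals from its standard errors. The interval of each of the 48 genes crosses 0, while that of Chd8 runs from 0.29 to 0.69.

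These null results carry a stated precision. The 95% interval, computed from the log2 fold change and standard error of the authors' deposited table, lay within ±0.2 on the log2 scale for 25 of the 48 genes (52.1%) and for 37.5% of all genes tested. It lay within ±0.5 for 46 of the 48 and for 88.5% of all genes tested. A rise as large as that of Chd8 was inside the interval for 2 genes, Hdac7 and Hdac10, and a fall of that size for Hdac7 alone. For the other 46, a change as large as that of Chd8 in either direction lay outside the interval. The same held for 11977 of the 13660 genes tested, so it is no trait of these genes. For each gene, changes within its own interval are left possible by these data.

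**Figure D2:**
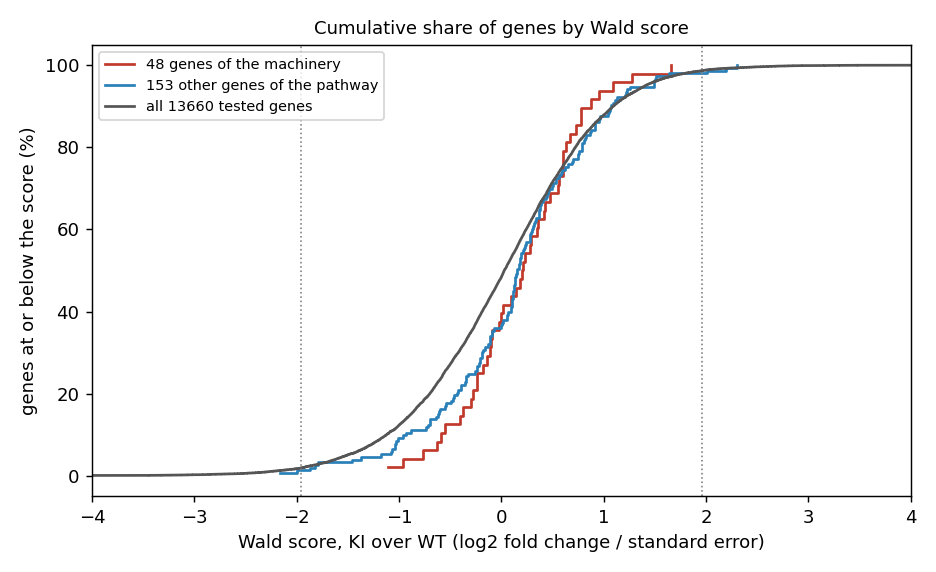
Cumulative share of genes (vertical axis, percent) at or below each Wald score of the authors' deposited table (horizontal axis) for the 48 genes, 153 other genes of the pathway and all 13660 tested genes; dotted lines mark an unadjusted two-sided p of 0.05. The 48 genes all lie between the dotted lines, and their curve rises more steeply than that of all genes.

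Among the 9 acetyltransferases 6 log2 fold changes were positive and 3 negative, from -0.088 to 0.072 in the authors' deposited table. The adjusted threshold was passed by none of them. Ep300 and Crebbp encode p300 and CBP, the paired coactivators that acetylate histones at enhancers. Crebbp had the highest value of the class at 0.072 (SE 0.11, interval -0.14 to 0.28, p = 0.502, mean normalised count 831), and Ep300 stood beside it at 0.065 (SE 0.090) in the authors' deposited table. Kat2a and Kat2b, the GCN5 and PCAF enzymes of the SAGA-type complexes, had opposite signs. Kat2b was the lowest of all 48 at -0.088 (SE 0.079, interval -0.24 to 0.067, p = 0.266, mean normalised count 520) and Kat2a stood at 0.037 (SE 0.047) in the authors' deposited table. Of the MYST family, Kat5 (TIP60, the catalytic subunit of the NuA4-type complex) was at 0.054 in the authors' deposited table (SE 0.056, interval -0.057 to 0.16, p = 0.339, mean normalised count 1134). Kat6a and Kat6b, whose mutations cause human intellectual disability syndromes, were at 0.018 and 0.049 in the authors' deposited table. Kat7 (HBO1), linked to replication origins, and Kat8 (MOF), the enzyme for lysine 16 of histone H4, were at -0.037 and -0.038 in the authors' deposited table.

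The 3 bromodomain proteins were all positive and all small. Brd2, a BET protein that binds acetylated histones at active promoters, had the second smallest p of the 48, with a log2 fold change of 0.054 in the authors' deposited table (SE 0.042, interval -0.029 to 0.14, p = 0.201, mean normalised count 4252). Its BET relative Brd3 stood at 0.017 (SE 0.048) in the authors' deposited table. Brd1, a scaffold that holds MYST acetyltransferases on chromatin, was the lowest at 0.013 in the authors' deposited table (SE 0.065, interval -0.11 to 0.14, p = 0.84, mean normalised count 1323). All 3 intervals lay within ±0.2.

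The 11 zinc-dependent deacetylases had 6 positive and 5 negative values and a median log2 fold change of 0.014 in the authors' deposited table. Class I holds Hdac1, Hdac2 and Hdac3 of the corepressor complexes, and Hdac8. Hdac2, the main class I enzyme of adult neurons, was at -0.045 (SE 0.047, interval -0.14 to 0.047, p = 0.334, mean normalised count 1670) in the authors' deposited table. Its partner Hdac1 was at 0.014 (SE 0.069), and Hdac3, the catalytic subunit of NCoR complexes, at -6.5e-04 (SE 0.073) in the authors' deposited table. Hdac8, a class I enzyme that deacetylates the cohesin subunit SMC3, was the lowest deacetylase at -0.057 (SE 0.10, interval -0.26 to 0.15, p = 0.583, mean normalised count 206) in the authors' deposited table.

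Class IIa deacetylases shuttle between nucleus and cytoplasm in response to calcium signals and repress MEF2 targets, and all 4 were positive. Hdac9 stood at 0.064 in the authors' deposited table (SE 0.073, interval -0.079 to 0.21, p = 0.379, mean normalised count 891). Hdac4 and Hdac5 were at 0.048 (SE 0.11) and 0.016 (SE 0.056) in the authors' deposited table. Hdac7, best known from endothelial cells and lymphocytes, was at 0.090 with a standard error of 0.31 in the authors' deposited table. Its interval ran from -0.52 to 0.70, the widest of the 48. The 7 endothelial markers had a median log2 fold change of -0.029 in the authors' deposited table, with 3 positive and 4 negative and none past the threshold. Of class IIb, Hdac10, a polyamine deacetylase, had the highest value among the deacetylases at 0.16 in the authors' deposited table (SE 0.20, interval -0.24 to 0.55, p = 0.435, mean normalised count 225). Hdac6, the tubulin deacetylase, was at -0.028 (SE 0.10), and Hdac11, the sole class IV enzyme, at -0.015 (SE 0.053) in the authors' deposited table.

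Sirtuins couple deacylation to NAD, and the group held the smallest p of the 48. Sirt1, the nuclear sirtuin that deacetylates histones, p53 and PGC-1alpha, stood at a log2 fold change of 0.16 in the authors' deposited table, a fold change of 1.12 with an interval of 0.981 to 1.27 (SE 0.095, unadjusted p = 0.0965, adjusted p = 0.9999, mean normalised count 348). This was also the highest log2 fold change of the 48, and it did not pass the threshold. Of the other nuclear sirtuins, Sirt6, a telomeric and DNA repair deacetylase, was at 0.012 (SE 0.13), and the nucleolar Sirt7 at -0.0037 (SE 0.15) in the authors' deposited table. Sirt3, the main mitochondrial deacetylase, was at 0.063 (SE 0.058, interval -0.050 to 0.18, p = 0.275, mean normalised count 1117) in the authors' deposited table. Sirt5, the mitochondrial desuccinylase, was the lowest sirtuin at -0.027 (SE 0.11, interval -0.25 to 0.19, p = 0.809, mean normalised count 170) in the authors' deposited table. Sirt2, a tubulin deacetylase abundant in myelin, was at 0.020 (SE 0.043, interval -0.064 to 0.10) in the authors' deposited table. Beside it, 11 of 12 oligodendrocyte markers were negative in the authors' deposited table, with a median log2 fold change of -0.074, while 51.6% of all genes tested were positive. None passed the adjusted threshold, and 2 of the 12 had an unadjusted p under 0.05 (DESeq2 Wald test), against 3.22% of all genes tested. Their transcripts were short, with a median of 2849 bases against 3565 for all tested genes with a length, and the part of length was not tested.

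The corepressor scaffolds and NuRD subunits, which bring deacetylases to chromatin, had values close to 0. Ncor1, the scaffold that activates Hdac3, was the highest scaffold at 0.037 in the authors' deposited table (SE 0.062, interval -0.084 to 0.16, p = 0.55, mean normalised count 5224). The paralogous Hdac1 and Hdac2 scaffolds Sin3a and Sin3b were at -0.0075 (SE 0.072, interval -0.15 to 0.13, p = 0.917, mean normalised count 753) and -0.0053 (SE 0.049) in the authors' deposited table. NuRD joins Hdac1 and Hdac2 to a remodeller of the CHD3 to CHD5 family. Of its 9 genes 3 were positive and 6 negative, and the median log2 fold change was -0.010 in the authors' deposited table. All 3 MTA proteins, the platform on which the deacetylases sit, were negative. Mta2 was the lowest of the 9 NuRD genes at -0.059 (SE 0.078, interval -0.21 to 0.093, p = 0.445, mean normalised count 959), with Mta1 at -0.014 and Mta3 at -0.0051, in the authors' deposited table.

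The MBD-family subunits, which are alternatives within NuRD, were both negative, with Mbd3 at -0.048 (SE 0.081) and Mbd2 at -0.027 (SE 0.067) in the authors' deposited table. Gatad2a and Gatad2b, the zinc-finger subunits that bridge them to the remodeller, were at 9.5e-04 (SE 0.075) and 0.017 (SE 0.094) in the authors' deposited table. The histone chaperones Rbbp4 and Rbbp7, shared with Sin3 and Polycomb complexes, were at -0.010 (SE 0.072) and 0.024 (SE 0.058) in the authors' deposited table. Rbbp7 was the highest of the 9 NuRD genes among the 48, with an interval of -0.089 to 0.14, p = 0.677 and a mean normalised count of 2472 in the authors' deposited table.

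The DNA methylation genes with CTCF had the highest median of the 7 roles, 0.059 on the log2 scale in the authors' deposited table. Of the 7 values 6 were positive, against 51.6% of all genes tested, and none passed. These genes had long transcripts, with a median of 9179 bases against 3565 for all tested genes with a length. With the linear trend on length removed, Tet1 (-0.0050) and Dnmt1 (-0.0067) became negative, and the part of length was not tested. Mbd2 and Mbd3, counted under NuRD here, were negative (-0.027 and -0.048). Tet3, the TET enzyme most expressed in neurons, was at 0.10 (SE 0.18, interval -0.25 to 0.46, p = 0.572, mean normalised count 1263), Tet2 at 0.096 (SE 0.16) and Tet1 at 0.043 (SE 0.12) in the authors' deposited table. Dnmt3a, the de novo methyltransferase of postnatal neurons, stood at 0.080 (SE 0.13, interval -0.18 to 0.34) in the authors' deposited table. Dnmt1, the maintenance enzyme, was at 0.012 (SE 0.083), and Mbd1, a methyl-CpG reader, at 0.059 (SE 0.093) in the authors' deposited table. Ctcf, which binds its sites mainly when they are unmethylated and anchors chromatin loops, was the lowest at -0.0092 (SE 0.050, interval -0.11 to 0.089, p = 0.855, mean normalised count 1476) in the authors' deposited table. Each of the TET and Dnmt3a values was smaller than its own standard error, as were those of all 48 genes except Sirt1, Brd2, Kat2b and Sirt3.

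The precision of the fold changes differed widely among the 48 genes. Standard errors ran from 0.042 for Brd2 to 0.31 for Hdac7 in the authors' deposited table. Each was set against the running median over 500 genes of like mean normalised count. For Hdac7 the standard error was 3.72 times this median, for Tet3 2.73 times, for Dnmt3a 2.20 times, for Tet2 1.96 times, for Sirt7 1.88 times and for Hdac10 1.76 times. These 6 were the genes of the 48 above 1.5 times, against 7.17% of all genes listed, and 3 of them belong to DNA methylation and demethylation. At the other end, Brd3 (0.728 times), Kat2a (0.742 times) and Sirt2 (0.748 times) were measured more tightly than most genes of their abundance. Which libraries lie behind a large standard error cannot be seen in the table. The 5 highest log2 fold changes after Sirt1 were those of Hdac10, Tet3, Tet2, Hdac7 and Dnmt3a, all among these 6 genes. Without the 6 genes, an alternative chosen after seeing the data, the median log2 fold change of the other 42 was 0.013.

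**Figure D3:**
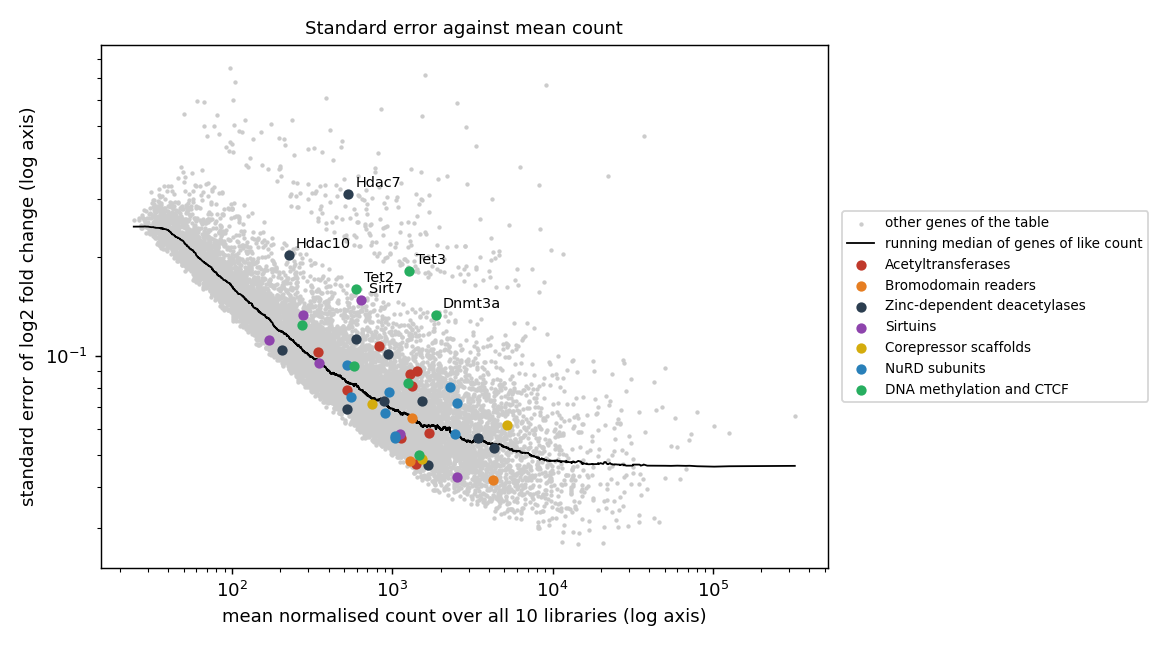
Standard error of the log2 fold change (vertical log axis) against mean normalised count over all libraries (horizontal log axis), both from the authors' deposited table; grey points are other genes, the line is the running median and coloured points are the 48 genes by role. Hdac7, Tet3, Dnmt3a, Tet2, Sirt7 and Hdac10 lie above the line by more than 1.5 times.

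Levels were compared between genes as mean normalised count over all 10 libraries per kilobase of the longest annotated transcript. On this scale the most abundant was Hdac11 (1630 per kb), followed by Mbd3 (1384 per kb), Sirt2 (1199 per kb), Rbbp7 (1102 per kb) and Brd2 (913 per kb). Within class I, Hdac2 was higher than Hdac1 (514 and 255 per kb), and within class IIa Hdac5 stood at 631 per kb and Hdac4 at 73.7 per kb. The Hdac1 level is uncertain because its transcript has closely matching pseudogenes, which may add to or take from its count. The TET enzymes were the lowest group, with Tet3 at 116, Tet2 at 65.0 and Tet1 at 19.1 per kb, the last being the lowest of the 48. Dnmt1 (214 per kb) and Dnmt3a (193 per kb) were close to each other. The median was 216 per kb for the 48 genes and 169 per kb for all tested genes with a length. These levels are means over both genotypes with no spread between libraries, and they depend on the transcript used: with the median transcript length of each gene the median of the 48 was 628 per kb, and the order correlated with the first at a Spearman coefficient of 0.753 over 48 genes, a description only.

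**Figure D4:**
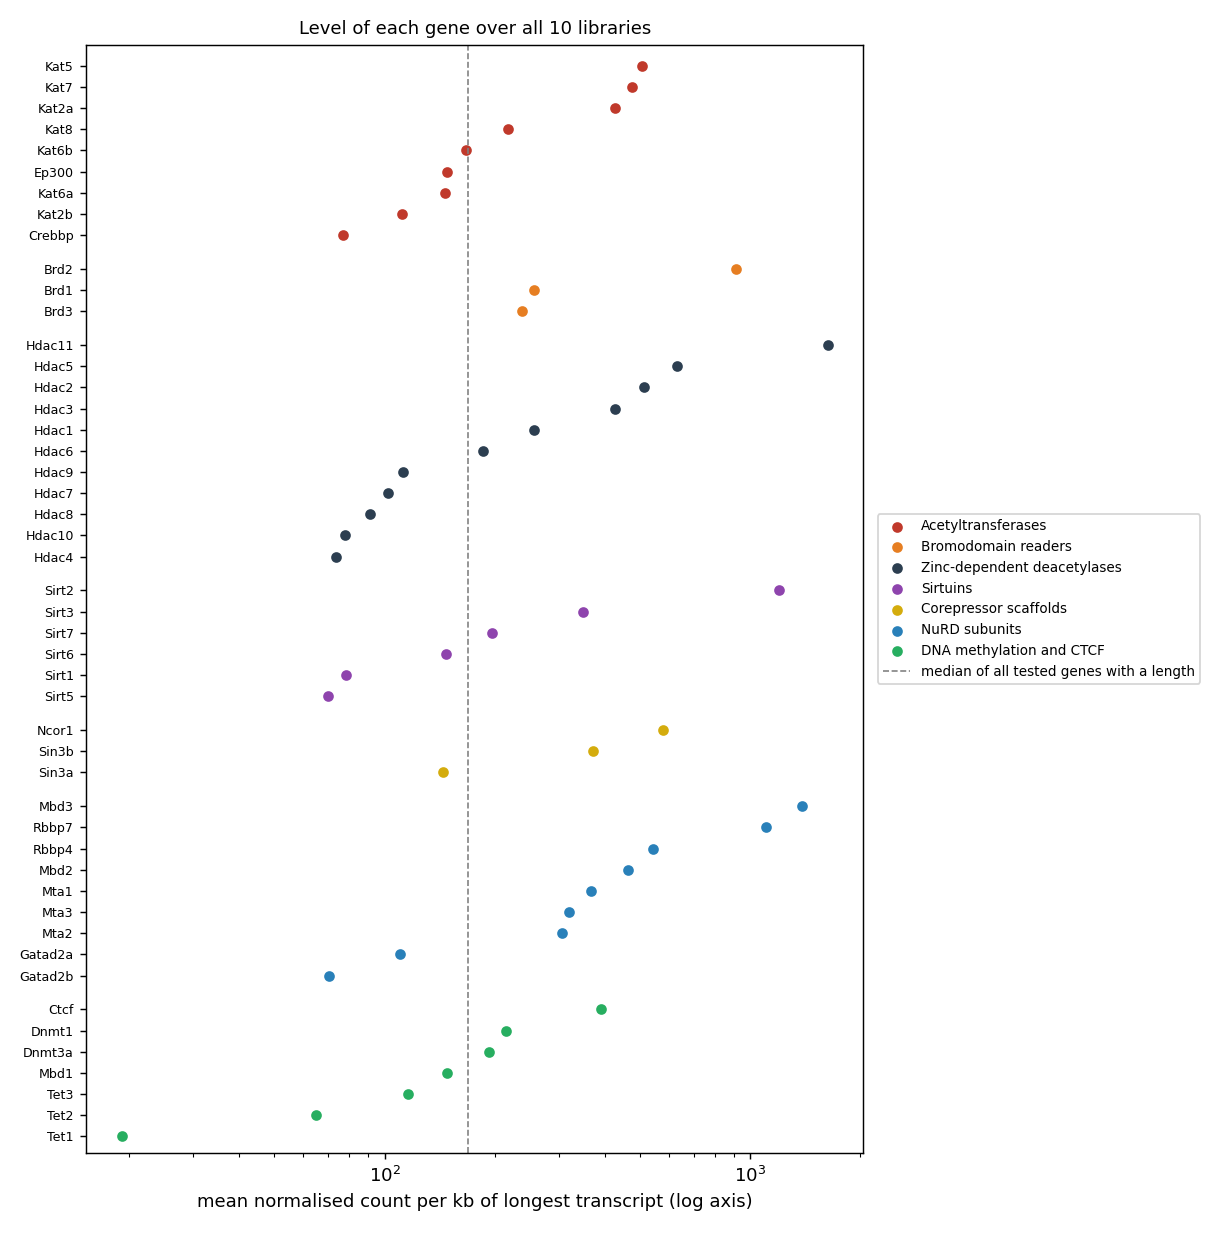
Mean normalised count over all 10 libraries per kilobase of longest transcript (horizontal log axis) for each of the 48 genes, sorted within roles; the dashed line is the median of all tested genes with a length. Hdac11, Mbd3, Sirt2 and Rbbp7 are the most abundant and Tet1 is the lowest at 19.1.

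Other genes of the same pathways were also without calls. Of 157 listed subunits, readers, cofactor enzymes and cohesin genes, 153 were in the authors' deposited table and 0 passed an adjusted p of 0.05. At an unadjusted p under 0.05 the authors' deposited table held 5 of them, with 3 higher in KI (1.34% of all genes tested were) and 2 lower (1.88% of all). Of the 153 values 97 were positive (63.4%) and 56 negative, with a median log2 fold change of 0.013. Over all genes tested 51.6% were positive and the median was 0.0025. The 153 genes also had longer transcripts, with a median of 4527 bases against 3565, and the part of length in their signs was not tested. The remaining 4, Dnmt3b, Dnmt3l, Ctcfl and Sp140, were not among the genes tested.

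Among 46 subunits of acetyltransferase complexes 30 were positive (median 0.011), and the smallest p was that of Usp22, the histone deubiquitinase of SAGA, at 0.075 (SE 0.034, unadjusted p = 0.0284) in the authors' deposited table. Hat1, which acetylates newly made histone H4, was at -0.21 (SE 0.11, p = 0.0608) in the authors' deposited table. Among 34 subunits of deacetylase complexes the median was 0.0087, and Chd3, a NuRD remodeller, was at 0.10 (SE 0.044, unadjusted p = 0.0215) in the authors' deposited table. Its counterpart Chd4 was at 0.068 (SE 0.063) in the authors' deposited table. Between these in order of p by the DESeq2 Wald test were Cdk2ap2 at -0.16 (SE 0.12) and Mier1 at 0.077 (SE 0.061). Of 23 bromodomain and YEATS readers 16 were positive, yet the 2 with an unadjusted p under 0.05 were negative: Mllt3, a YEATS reader of the super elongation complex, at -0.13 (SE 0.062, p = 0.0307) and Trim24, at -0.14 (SE 0.069, p = 0.0458), in the authors' deposited table.

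The 25 other DNA methylation genes had a median of 0.0042 and no unadjusted p under 0.05 in the authors' deposited table, with Zbtb4, a methyl-CpG-binding zinc-finger protein, at -0.087 (SE 0.048, p = 0.0683). The 13 CTCF and cohesin genes had a median of 0.0069, and the smallest p was that of Nipbl, the cohesin loader, at 0.12 (SE 0.097, p = 0.227) in the authors' deposited table. The 12 genes of acetyl-CoA and NAD supply and use had a median of 0.046 in the authors' deposited table. The member with the smallest p was Parp1, a large consumer of nuclear NAD, at 0.12 (SE 0.059, unadjusted p = 0.0444) in the authors' deposited table, and none of these genes passed after adjustment.

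Transcript length moved with the fold changes. Over the 13098 genes with a length, the Spearman correlation of the longest transcript with the Wald score of the authors' deposited table was 0.248, and over the 48 genes it was 0.401. Both are descriptions across genes, which share libraries and are no replicates. The 48 genes were longer than most, with a median of 4273 bases against 3565 for all tested genes with a length. The 8 longest of the 48, from 9037 to 14369 bases, all had positive values, Ep300, Crebbp and the TET genes among them. Of the 8 shortest, from 1579 to 2245 bases, 5 were positive and 3, Kat8, Mbd3 and Mbd2, negative. With the linear trend of all genes on log10 length removed, the median log2 fold change of the 48 was -0.0015, 23 of 48 were positive and none passed either threshold. The part of length in the small excess of positive values was not tested.

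**Figure D5:**
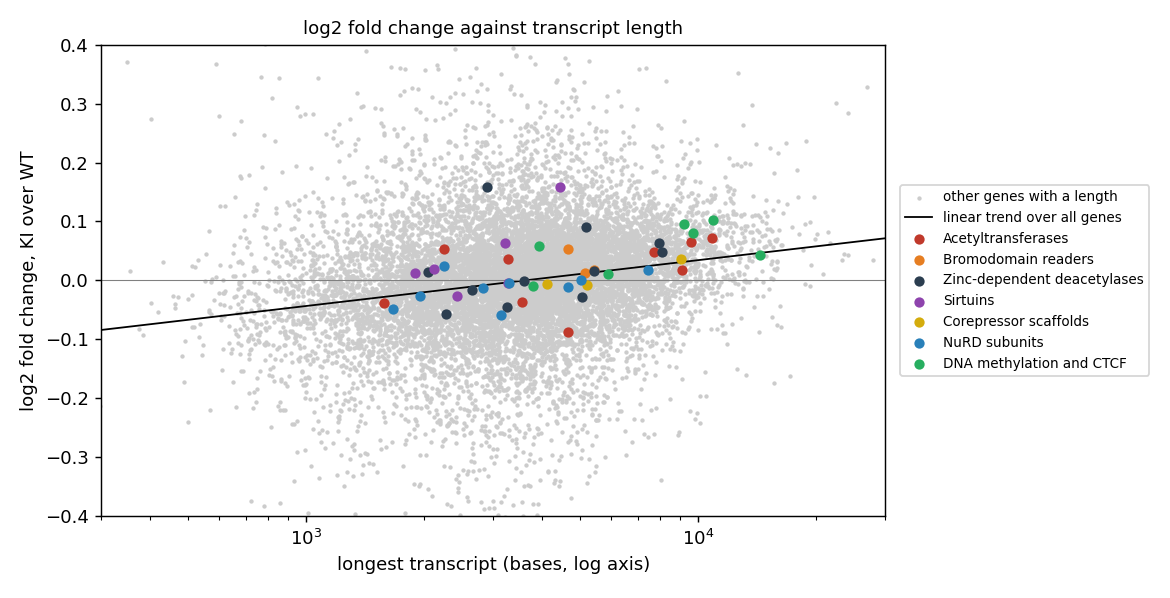
Log2 fold change of KI over WT from the authors' deposited table (vertical axis, limited to ±0.4) against the longest transcript (horizontal log axis, bases); grey points are other genes, coloured points the 48 genes by role, and 103 of 13098 genes lie outside the plotted range. The line is the linear trend over all genes, which runs upward with length, and the long TET, Ep300 and Crebbp transcripts all have values above 0.

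Some counts may hold reads of other genes or lack reads shared with them. The use of strand and the treatment of reads with several positions are both not given in the sources used here. Exons of 21 of the 48 genes overlapped another gene in GENCODE M21, by more than 5% of exon bases for 8 of them. As a share of the member's exon bases, the largest overlaps with a single gene were those of Hdac4 with the non-coding Gm26720 (22.4%), Hdac11 with Gm44002 (15.4%), Kat5 with Rnaseh2c (12.1%) and Rbbp4 with Gm26722 (9.10%) and Sync (8.94%), each on the opposite strand. Hdac1 has the processed pseudogenes Gm10093, which matched its transcript at 99.4% identity over 1444 bases, and AC125456.1 (96.3% over 1450 bases). Kat2b has a pseudogene matching at 95.1% over 2479 bases. Rbbp7 has one as well, matching at 97.1% over 942 bases. Sirt5, with the lowest mean normalised count of the 48, matched transcripts of 11 other genes, among them Xpnpep1 (100% over 286 bases) and Wdr31 (97.6% over 843 bases). The fold changes and levels of Hdac1, Kat2b, Rbbp7 and Sirt5 are uncertain to that extent. Hdac7 overlapped its neighbour Slc48a1 by 29 exon bases, 0.429% of its exons. In RefSeq's annotation of GRCm38, the assembly behind mm10, Sirt1 (gene 93759) lies on chromosome 10 from 63319005 to 63339035, Kat2b (18519) on chromosome 17 from 53566774 to 53672721, Hdac7 (56233) on chromosome 15 from 97792661 to 97844502 and Tet3 (194388) on chromosome 6 from 83362373 to 83457208, and all 4 are protein-coding.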

How the data were processed

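RNA-seq of cortex from 5 KI and 5 WT mice was analysed from the authors' deposited table of their 1 comparison. Per the submitters' processing notes, the tools were Trimmomatic 0.39, HISAT2 2.1.0, featureCounts 2.0.0 and DESeq2 1.26.0 on mm10; their settings, annotation, strand use and filters were not given in the sources used here. Per the file headers, the authors' columns are the mean normalised count over all libraries (a signal, scaled in the authors' fit), the log2 fold change and its standard error, the Wald score, the p-value and the adjusted p-value. The deposited adjusted p was reproduced by Benjamini-Hochberg adjustment of the 13660 deposited p-values, and the deposited score equalled log2 fold change over standard error. The lowest deposited mean normalised count was 24.4. Library depth is unknown, and nothing in the labels says that animals were independent litters, so p-values measure the spread between these libraries.

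Symbols and coordinates came from RefSeq GRCm38 (13497 of 13661 gene numbers matched) and lengths and exons from GENCODE M21. Near-identical copies were sought with BLAST 2.17.0 (95% identity, 200 bases). Intervals are 95% normal intervals. Python 3.11.15, pandas 2.3.3 and scipy 1.17.1 were used, and the calculations were tested on simulated data. The 48 genes, the other lists and the tests were chosen with earlier results of these data known. Each of the 48 is named, with full values for the 8 with the smallest p and for the highest and lowest of each role. Other lists name genes from among the 4 with the smallest p, not always all 4. Chd5, Cdk2ap1 and Ttr were named outside that rule. Relative standard errors, exon overlaps and copies were examined after values were seen. Alternatives were thresholds of 0.1 and 0.01, minimum counts of 50 or 200, a log2 minimum of 0.5, rescaled Wald scores, centring, a weighted mean and removal of the length trend.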

Additional observations from a re-analysis of the deposited data

How the results depend on the processing

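The count of the 48 genes past an adjusted p of 0.05 stayed 0 at thresholds of 0.1 and 0.01, with minimum counts of 50 or 200, a log2 minimum of 0.5, Wald scores divided by their robust SD (0.854) and the length trend removed. The count at an unadjusted p under 0.05 stayed 0 under the rescaling and the length correction. Count minimums leave unadjusted p-values as they are, so they could not raise this count. Rescaled scores put 6.22% of all genes tested under 0.05 and gave Sirt1 an unadjusted p of 0.0518. They raised the other pathway genes under 0.05 to 8, against 5. The median log2 fold change of the 48 was 0.016 with a minimum of 200, 0.013 centred on all genes, 0.011 as an inverse-variance weighted mean and 0.013 without the 6 genes of high standard error, and it turned to -0.0015 with the length trend removed, with 23 of 48 positive against 29. With the median transcript length the median level was 628 per kb, against 216. Some single values changed sign. Gatad2a was -0.0015 when centred. With the length trend removed Kat6a was -0.015, Brd1 -7.7e-04, Gatad2a -0.012, Gatad2b -0.0091 and Dnmt1 -0.0067. Tet1 was -0.0050 with that trend removed, against 0.043 as deposited, so not only values near 0 changed sign. No paired analysis was possible because the columns carry no replicate values; leaving out replicates and other count models were not run for the same reason. The largest standard errors, which limit what could be seen, were those of Hdac7, Hdac10, Tet3, Tet2, Sirt7, Sirt6, Dnmt3a and Tet1.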
